A study of Mus musculus with 40 samples.

Results

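The early to late 2-cell transition was followed in mouse oKO embryos, whose mothers were *Tdp43* flox/flox with Zp3-Cre, a design meant to remove TDP-43 from the oocyte. Late 2-cell embryos (L2C, 48 h after hCG) were set against early 2-cell embryos (E2C, 36 h after hCG) of that genotype, and the difference was then read against the same interval in embryos of *Tdp43* flox/flox mothers without Cre, the control, labelled WT. The embryos of both genotypes came from females 7 to 8 weeks old on a mixed C57BL/6J and ICR background mated with normal ICR males, so every oKO embryo received a paternal allele that Cre had not met. The Zp3 promoter drives Cre in growing oocytes, and every library pooled 20 embryos freed of their zona. The genes are those with a mean of at least 1 FPKM (fragments per kilobase of transcript, relative to all mapped fragments of the library) over the 2 L2C oKO and the 2 E2C oKO libraries, which were 7061 of the 24056 genes used. *Kctd20* lay just inside that limit at 1.00028 FPKM and *Nfe2l1* just outside it at 0.999626 FPKM. The series holds 40 samples, of which 24 are RNA-seq libraries in 12 groups of 2.

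The mouse 2-cell stage is when the embryo takes over from the oocyte. A first, minor wave of transcription starts in the zygote and leads into the early 2-cell stage, when it includes *Zscan4*, *Zfp352* and other genes that are then shut off again. The major wave of zygotic genome activation (ZGA) follows at the late 2-cell stage and brings ribosomal protein genes and other genes of growth and metabolism, while messenger RNAs stored in the oocyte are removed in parallel. TDP-43, encoded by *Tardbp*, is an RNA- and DNA-binding protein of the hnRNP type, and the question of the study was what its maternal supply does at this step.

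*Tardbp* was listed at 1.95 and 2.01 FPKM in L2C oKO and at 3.52 and 2.34 FPKM in E2C oKO embryos, against 6.14 and 7.52 FPKM in L2C control and 7.95 and 8.15 FPKM in E2C control embryos. All 4 oKO libraries lay below all 4 control libraries, and the FPKM covers the whole gene, including parts that Cre does not remove. Between L2C and E2C, *Tardbp* was not called in oKO embryos (log2 change -0.38 ± 0.24 SE, adjusted p = 0.157). The 2 L2C oKO libraries correlated with each other at r = 0.962 over the 7061 genes on the log2(FPKM + 1) scale, and the 2 E2C oKO libraries at 0.964. The second L2C oKO library lay nearer to E2C than the first, with a mean r of 0.672 with the E2C oKO libraries against 0.596 for the first. The summed FPKM was 124265 and 126713 in L2C oKO and 329047 and 363993 in E2C oKO embryos, against 209102 and 215926 in L2C control and 350521 and 301587 in E2C control embryos. Because these sums are so unequal, the main counts are given on the deposited FPKM and again after median-ratio scaling of the libraries, and values of single genes and lists are on the deposited scale unless stated. The values hold no read counts, so the depth behind each value is unknown. In pooled embryos, fewer cells carrying an RNA and less RNA in each cell cannot be told apart, and with priming on the poly(A) tail, as in Smart-seq2, neither can a shorter tail and less RNA.

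Of genes specific to other cells, 1 of 16 cumulus and granulosa markers, 2 of 14 male germ cell markers, 3 of 18 blood and immune markers and 1 of 10 oviduct markers reached the limit of 1 FPKM. The summed cumulus and granulosa markers stayed between 1.06 and 1.29 FPKM in L2C oKO and between 2.73 and 3.85 FPKM in E2C oKO embryos. Blood and immune markers summed to 46.0 and 47.4 FPKM in L2C oKO against 2.74 and 7.33 FPKM in E2C oKO embryos, and to 38.1 and 29.5 FPKM in L2C control against 15.5 and 8.45 FPKM in E2C control embryos. *Hba-a1*, *Hba-a2* and *Cd52* were the 3 tested, and all 3 rose in oKO embryos, *Hba-a2* without its call in 6 alternative fits. Male germ cell markers summed to 7.80 and 8.09 FPKM in L2C oKO against 4.94 and 5.20 FPKM in E2C oKO embryos, with *Ldhc* called, and oviduct markers to 14.3 and 11.0 against 3.37 and 4.10 FPKM, with *Epcam* called. The part of any admixed cells in the results was not tested. The 2-cell and oocyte markers *Zscan4c*, *Zfp352*, *Dppa3* and *Ooep* were present in all 4 oKO libraries.

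Without maternal TDP-43 the 2-cell embryo still changed a large part of its RNA. With limma on log2(FPKM + 1), calling a gene at an adjusted p up to 0.05 with a change of 2-fold or more, 1544 genes were higher (21.9%) and 2211 lower (31.3%) in L2C oKO than in E2C oKO embryos on the deposited values. After scaling, 1937 genes were higher (27.4%) and 2074 lower (29.4%), so that the higher genes were 41.1% of the calls as deposited and 48.3% when scaled. The call was the same on both scales for 1544 higher and 2043 lower genes. The median change over all tested genes was -0.26 on the deposited scale and -0.10 after scaling. The 2 L2C oKO values both lay above the 2 E2C oKO values for 2446 genes (34.6%), both below for 3308 (46.8%), and overlapped for 1307 (18.5%). An exact permutation test of 2 against 2 libraries cannot give a p below 0.333, so the calls rest on the spread shared by all 24 libraries. Nothing in the labels or methods ties the 2 pools of a group to different mothers, and the p-values then measure the spread between libraries, which may be technical.

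Among genes with a mean of at least 5 FPKM, the 12 with the largest increase in oKO embryos were snoRNA host genes, a ribosomal protein and its copy, *Obox6*, *Tmed6*, a snoRNA and genes with provisional names, all at 24.3 FPKM or less in E2C oKO embryos. *Gm11517*, annotated as a pseudogene in mm9 (chr11:96656753-96657166), had 387 and 307 FPKM in L2C oKO and under 1 FPKM in both E2C oKO libraries (log2 change 7.94 ± 0.29 SE, adjusted p = 1.24e-12). *Snhg3*, a non-coding host gene of snoRNAs, which guide modification of ribosomal RNA, had 1079 and 842 FPKM in L2C oKO against 24.3 and 11.4 FPKM in E2C oKO embryos (5.75 ± 0.59, adjusted p = 1.73e-07). In both cases the L2C libraries were far above the E2C libraries with no overlap. *Snhg9*, another snoRNA host, had 128 and 88.1 FPKM against 1.69 and 0.267 FPKM. *Rps27*, a protein of the small ribosomal subunit, had 135 and 124 FPKM in L2C oKO against 1.49 and 2.85 FPKM in E2C oKO embryos (5.40 ± 0.36), and its near-identical copy *Rps27rt* had 189 and 172 against 2.27 and 3.10 FPKM, a pair whose reads the counting may have split between them. *Obox6*, a homeobox gene of the Obox family, had 127 and 113 FPKM in L2C oKO against 0.957 and 3.40 FPKM in E2C oKO embryos (5.36 ± 0.32, adjusted p = 1.00e-10). *Tmed6*, of the cargo receptors of the early secretory pathway, had 70.2 and 58.8 against 0.116 and 0.405 FPKM. The others were *Gm12789*, *Gm16381*, *2310040G24Rik*, *B020004C17Rik* and *Snord104*, the last a small RNA whose FPKM is uncertain. All 12 were also higher in L2C control than in E2C control embryos. They were chosen by their oKO change, so that an oKO change above the control change says nothing about them.

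**Figure D1:**
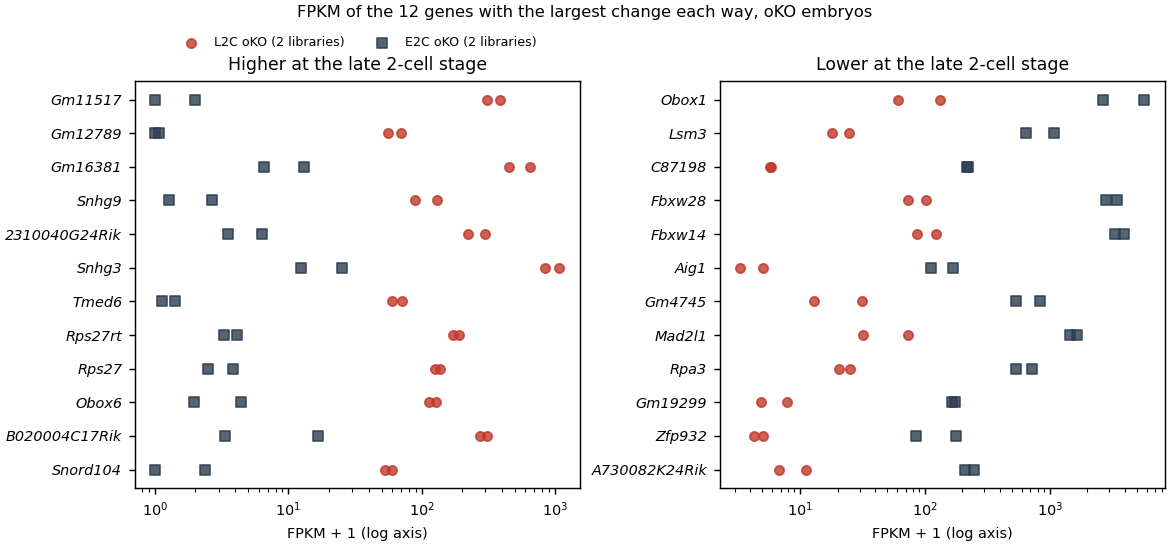
FPKM + 1 (log axis) of the 12 genes with the largest increase (left) and the 12 with the largest decrease (right) in oKO embryos, red circles for the 2 L2C oKO libraries and dark squares for the 2 E2C oKO libraries. Genes were chosen for the size of the change and for groups that do not overlap, so the gap between circles and squares is set by the choice, with *Gm11517* at 387 and 307 FPKM in L2C oKO embryos as the largest increase.

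The genes that fell most were abundant oocyte and early 2-cell RNAs. *Obox1* had 60.4 and 131 FPKM in L2C oKO against 2687 and 5727 FPKM in E2C oKO embryos (-5.45 ± 0.34, adjusted p = 2.17e-10). *Lsm3*, a subunit of the ring that binds U6 small nuclear RNA, had 17.1 and 23.8 against 1076 and 640 FPKM (-5.29 ± 0.24). The F-box genes *Fbxw28* and *Fbxw14*, oocyte-expressed members of a cluster of near-identical copies on chromosome 9, had 72.9 and 101 against 2809 and 3444 FPKM and 85.7 and 121 against 3305 and 3939 FPKM. *Mad2l1*, of the spindle checkpoint, had 31.2 and 71.7 against 1450 and 1663 FPKM (-5.01 ± 0.29), and *Rpa3*, of the single-strand DNA-binding complex of replication, had 19.7 and 23.9 against 726 and 535 FPKM. The other large decreases were in *Aig1*, *C87198*, *Gm4745*, *Gm19299*, *Zfp932* and *A730082K24Rik*, with log2 changes of -5.24 to -4.70.

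The most abundant transcripts that fell still had 412 FPKM or more in L2C oKO embryos. *Dppa3*, which protects the maternal genome from loss of methylation, had 2766 and 3108 FPKM in L2C oKO against 25191 and 28653 FPKM in E2C oKO embryos (-3.20 ± 0.20, adjusted p = 2.18e-10). It was 4674 and 5487 FPKM in L2C control against 22437 and 17587 FPKM in E2C control embryos. *Mphosph6*, a cofactor of the RNA exosome, had 412 and 736 against 11516 and 13685 FPKM, *Pttg1*, the separase inhibitor securin, 984 and 1000 against 11011 and 9608 FPKM, and *Cks2*, a subunit that binds cyclin-dependent kinases, 2178 and 2381 against 17514 and 13482 FPKM. *Omt2b* was left at 6678 and 7273 against 20828 and 19495 FPKM (-1.53 ± 0.22). With quantile normalization *Dppa3*, *Pttg1* and *Cks2* were no longer called and *Omt2b* had a positive change of 0.42 that was not called either, so their decreases hold on the deposited and median-ratio scales only. Among the higher genes the most abundant were *Oosp1*, an oocyte-secreted protein gene (1712 and 1901 against 568 and 1071 FPKM), *Snhg3*, *Rpl41*, *Cox8a*, *Gm16381* and *BB287469*. *Oosp1* and *Cox8a* were no longer called when the first E2C oKO library was left out (log2 changes of 0.75 and 0.80).

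A few genes were at 0 at one stage. Of these, 7 were listed at 0 in both E2C oKO libraries and at over 5 FPKM in both L2C oKO libraries, which were *Snora26*, *1600010M07Rik*, *Npl*, *Cst7*, *Tnfrsf12a*, *Apom* and *Btbd18*. *Npl*, N-acetylneuraminate lyase, had 16.7 and 12.6 FPKM in L2C oKO embryos and 71.6 and 77.5 FPKM in L2C control embryos. *Gm17689* was the 1 gene listed at 0 in both L2C oKO libraries, with 5.58 and 5.10 FPKM in E2C oKO embryos. No fold is given for these genes.

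Set beside the control transition, the oKO transition ran the same way for most genes called in control among the 7061 tested. These were chosen by their level in oKO libraries alone, so genes that rise in control and stay low in oKO are left out. With no filter on level 3549 genes were higher in control, against 2316 here. The shared percentages and the correlations below therefore hold only within the tested set. In control embryos 2316 of the same 7061 genes were higher (32.8%) and 1816 lower (25.7%) at L2C than at E2C as deposited, and 1982 (28.1%) and 2212 (31.3%) after scaling, so that the higher genes were 56.1% and 47.3% of the calls. Of the 2316 genes higher in control, 1221 (52.7%) were also higher in oKO, 1022 were not called and 73 were lower as deposited. After scaling 1372 of 1982 (69.2%) were also higher, 575 were not called and 35 were lower. Of the 1816 genes lower in control, 1410 (77.6%) were also lower in oKO, 361 were not called and 45 were higher as deposited, and after scaling 1551 of 2212 (70.1%) were also lower, 596 were not called and 65 were higher. Genes higher in control had a median log2 change of 1.08 in oKO and 2.00 in control as deposited, and of 1.59 and 1.97 after scaling. Genes lower in control had medians of -1.75 in oKO and -2.00 in control as deposited, and of -1.59 and -2.11 after scaling. These genes were chosen by their control change, so that the control medians are large by construction. The log2 changes of the 2 transitions, which share no library, correlated across genes at Pearson's r = 0.757 and Spearman's rho = 0.769 as deposited, a description over genes, which are not independent replicates.

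On a line from the mean E2C control (position 0) to the mean L2C control (position 1) in the space of the 7061 genes, the L2C oKO libraries stood at 0.646 and 0.540 and the E2C oKO libraries at -0.0260 and -0.0627 on the deposited values. After scaling, the L2C oKO libraries stood at 0.699 and 0.582 and the E2C oKO libraries at -0.0377 and -0.0691. Within these genes both L2C oKO libraries were thus past the midpoint and short of the L2C control. The genes were chosen by their level in oKO libraries, so genes that rise in control and stay low in oKO do not enter the positions. The distance between the L2C and E2C means on the log2 scale was 140 in oKO and 160 in control embryos, beside 28.9 to 49.6 between replicates.

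The difference of the 2 transitions was tested directly. As deposited, the change was more positive in oKO than in control for 608 genes (8.61%) and more negative for 1801 (25.5%), with a median difference of -0.40 over all tested genes. After scaling the counts were 1105 (15.6%) and 879 (12.4%) with a median of 0.06, so that the more positive genes were 25.2% of the calls as deposited and 55.7% after scaling. The balance of the 2 directions therefore depends on the scale, and 606 more positive and 877 more negative genes had the call on both. The more positive calls fell to 378 without the first E2C control library, and the more negative calls to 1198 without the second.

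**Figure D2:**
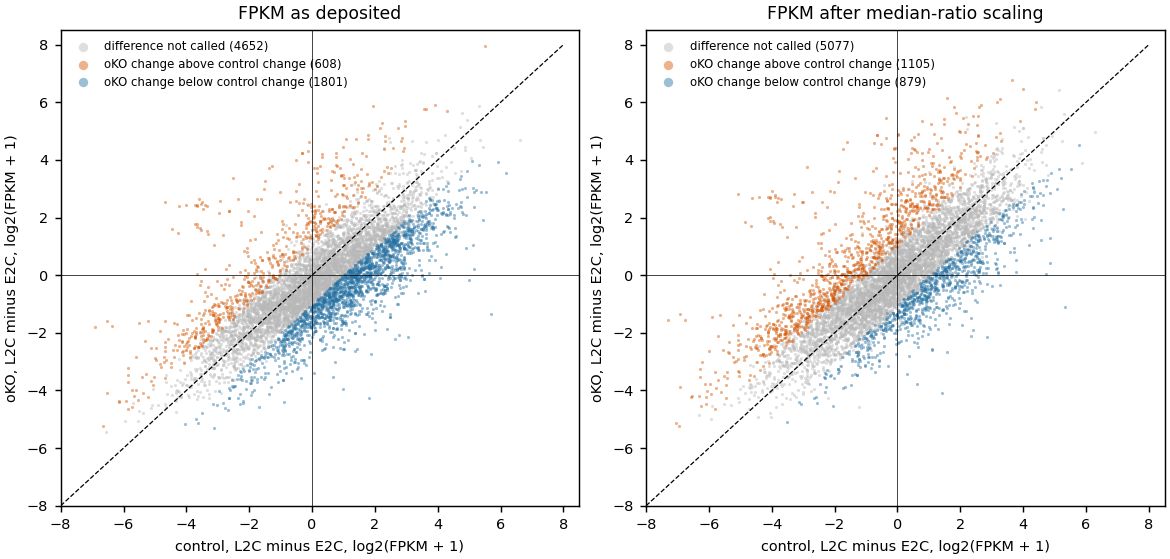
Change of each of the 7061 genes from E2C to L2C in log2(FPKM + 1), oKO on the vertical and control on the horizontal axis, as deposited (left) and after median-ratio scaling (right). Orange points are genes whose change was more positive in oKO (608 and 1105) and blue points those whose change was more negative (1801 and 879), and the dashed line marks equal change.

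Genes were also classed with the study's thresholds, which its methods apply to outside reference RNA-seq data and which were applied here to libraries of the series with maternal TDP-43, so that no oKO library entered. Maternal genes have over 5 FPKM in MII control oocytes and are at least 3-fold lower at L2C. Major ZGA genes are under 5 FPKM at MII and over 5 FPKM and at least 3-fold higher at L2C, or over 5 FPKM at MII and more than 5-fold higher at L2C, and are not minor ZGA genes, which pass the 3-fold rule at the 1-cell stage or E2C. The E2C control libraries thus enter the definition of both ZGA classes. They are also the baseline of the control transition, so control changes and differences in these classes are partly set by the definition. The L2C libraries used were those titled as injection controls (NC). The genotype labels of the NC libraries say knockdown, against their titles, so the control L2C libraries were used as the alternative. Of 1822 maternal genes tested, 923 (50.7%) fell and 94 (5.16%) rose in oKO as deposited, beside 860 and 167 in control, and 873 fell in oKO and 1017 in control after scaling. The maternal RNAs summed to 24855 and 32123 FPKM in L2C oKO against 120060 and 145820 FPKM in E2C oKO embryos, and to 21242 and 20697 FPKM in L2C control against 117720 and 103910 FPKM in E2C control embryos. These sums and those of the major ZGA genes below are unscaled, and the library totals were unequal. All genes summed to 124265 and 126713 FPKM in L2C oKO and to 209102 and 215926 FPKM in L2C control embryos. At E2C the totals were 329047 and 363993 FPKM in oKO and 350521 and 301587 FPKM in control embryos. Over the 1822 maternal genes the median difference between the transitions was -0.08 as deposited and 0.35 after scaling. With the control L2C libraries defining the class, 1132 of 1879 maternal genes fell and 37 rose in oKO embryos.

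Of 998 major ZGA genes tested, 621 (62.2%) rose and 63 (6.31%) fell in oKO, beside 822 (82.4%) and 12 in control as deposited. After scaling 701 rose in oKO and 768 in control. The major ZGA genes summed to 20942 and 16620 FPKM in L2C oKO against 15637 and 16257 FPKM in E2C oKO embryos, and to 62721 and 67030 FPKM in L2C control against 20916 and 17179 FPKM in E2C control embryos. With the control L2C libraries defining the class, 699 of 961 rose and 22 fell in oKO, and the sums were 18805 and 14626 FPKM in L2C oKO against 7167 and 7158 FPKM in E2C oKO embryos, so the ratio of the oKO sums depends on the definition. Among the 998 genes first given, the difference of the transitions was called more negative in oKO for 438 and more positive for 58 as deposited, and for 225 and 113 after scaling. Of the 1105 genes in the data that the study's source data name as major ZGA genes, 660 reached the limit of 1 FPKM in oKO embryos. Of these 660 genes 522 rose and 9 fell in oKO, beside 529 and 12 in control, and those that stayed low in oKO are not counted. By these thresholds 515 minor ZGA genes were tested, of which 166 rose (32.2%) and 161 fell (31.3%) in oKO as deposited. Of all tested genes 21.9% rose and 31.3% fell in oKO. In control 148 of the 515 rose and 209 fell. For these 515 the difference was more positive in oKO for 134 and more negative for 64 as deposited, and for 189 and 32 after scaling. The study's other named ZGA genes, those outside its major list and called its minor ZGA genes here, of which 60 were tested, went the other way between genotypes, with 37 higher and 12 lower in oKO (median log2 change 1.72) and 12 higher and 34 lower in control (median -1.69). The difference was more positive in oKO for 45 and more negative for 2 of them as deposited, and for 48 and 1 after scaling. The study's methods take its ZGA genes from reference data outside the series. The 12 lower calls among its minor ZGA genes became 5 without the second E2C oKO library. Over all tested genes the deposited medians were -0.26 in oKO and 0.19 in control embryos.

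Genes of the transient early 2-cell burst went against the direction shared by most genes. Of 31 tested, 18 rose and 6 fell from E2C to L2C in oKO embryos, while 5 rose and 22 fell in control embryos, and the difference was more positive in oKO for 25 and more negative for 0 (29 and 0 after scaling). *Zfp352*, a zinc finger gene of this burst, had 90.3 and 76.3 FPKM in L2C oKO against 9.14 and 16.7 FPKM in E2C oKO embryos. In control embryos it had 15.7 and 10.4 FPKM at L2C against 49.6 and 42.1 FPKM at E2C, and the difference of the changes was 4.41. *BB287469*, one of a set of Eif1a-like copies, had 403 and 401 FPKM in L2C oKO against 44.3 and 102 FPKM in E2C oKO, and 48.9 and 36.6 FPKM in L2C control against 344 and 310 FPKM in E2C control embryos (difference 5.48). In both genes the 2 L2C oKO values lay above the 2 E2C control values. The related copies *Gm5662*, *Gm4027*, *Gm8300*, *Gm2016* and *Gm2022* shared the pattern, with oKO log2 changes of 2.15 to 2.63 and control changes of -3.53 to -2.34. *Tdpoz4* and *Tdpoz3*, of the TD and POZ domain family, had 31.2 and 24 against 0.710 and 1.27 FPKM and 17.1 and 10.2 against 0 and 0.0564 FPKM in oKO embryos. Reads of these copies may have been divided among family members by the counting.

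The *Zscan4* genes, which mark the peak of the early 2-cell program and act in telomere maintenance in mouse embryonic stem cells, fell in oKO embryos too, by less than in control. *Zscan4c* had 54.1 and 46.7 FPKM in L2C oKO against 94.9 and 326 FPKM in E2C oKO embryos (log2 change -1.79 ± 0.37, adjusted p = 0.000351), and 3.34 and 4.25 FPKM in L2C control against 627 and 516 FPKM in E2C control embryos (-6.90). *Zscan4f* had 85.6 and 78.6 against 151 and 412 FPKM in oKO, and 5.73 and 9.68 against 799 and 766 FPKM in control embryos. The E2C oKO libraries differed from each other more than 2-fold in both genes. Without the second E2C oKO library the changes were -0.90 for *Zscan4c*, -0.87 for *Zscan4f* and -0.89 for *Zscan4a*, none of them called, and 1 burst gene in place of 6 was then called lower. Quantile normalization also left 1.

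**Figure D3:**
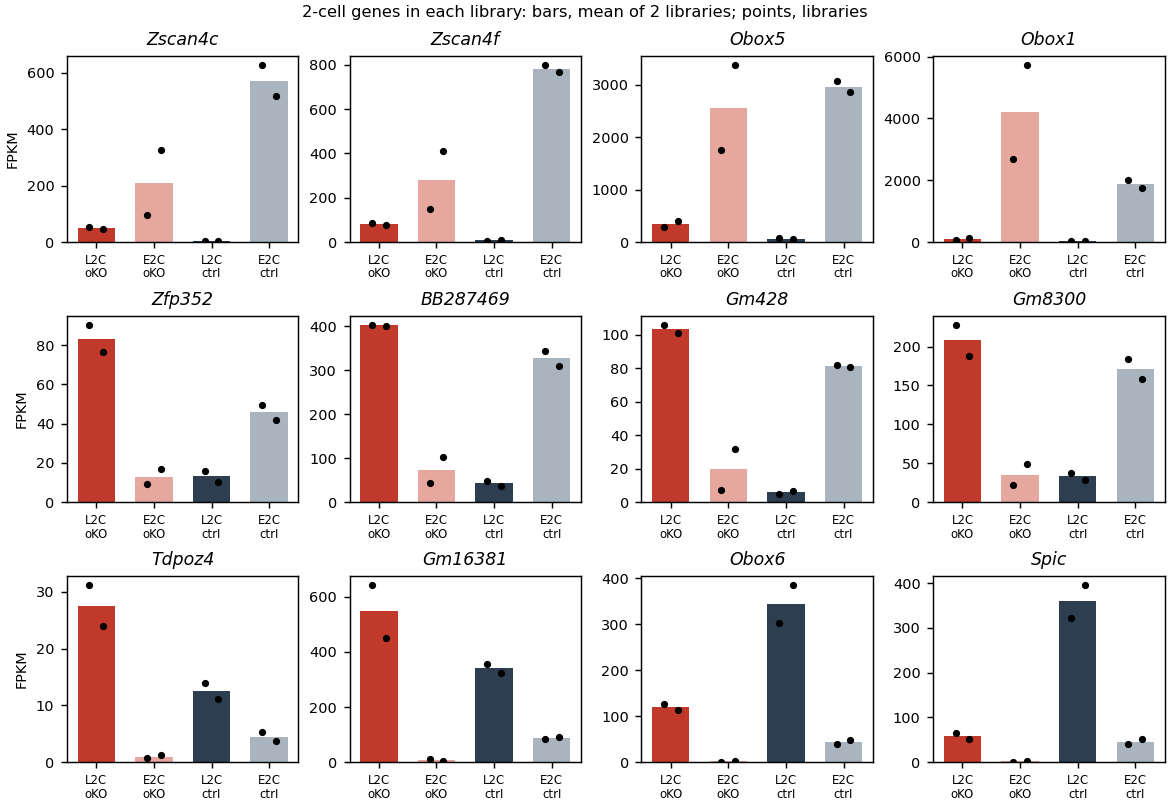
FPKM of 12 genes of the 2-cell stage in each library, in the order L2C oKO, E2C oKO, L2C control and E2C control, with bars for the mean of 2 libraries and points for the libraries. In *Zfp352*, *BB287469*, *Gm428* and *Gm8300* the high bars are L2C oKO and E2C control, while *Obox1* is high at E2C in both genotypes and *Obox6* and *Spic* are high at L2C in both.

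The Obox homeobox genes, regulators of ZGA in the mouse, followed their control course with 1 exception. *Obox1*, *Obox2* and *Obox5*, the oocyte-loaded members, fell in oKO embryos and in control embryos, *Obox2* with 26.7 and 58.0 FPKM in L2C oKO against 614 and 1264 FPKM in E2C oKO and *Obox5* with 283 and 399 against 1751 and 3375 FPKM. *Obox6* and *Crxos* rose in both genotypes, *Crxos* with 436 and 287 FPKM in L2C oKO against 49.3 and 32.0 FPKM in E2C oKO embryos. The exception was *Obox3*, with 26.4 and 22.7 FPKM in L2C oKO against 3.59 and 7.21 FPKM in E2C oKO, and 8.79 and 9.11 FPKM in L2C control against 35.7 and 34.4 FPKM in E2C control embryos. The difference between transitions was positive for all 6, and called for 4 as deposited and for 6 after scaling. These genes are close copies, and their reads may be shared.

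The 8 genes with the largest positive difference were *Gm11758*, *Gm11757*, *Gm13871*, *Gm428*, *LOC101055863*, *LOC100862015*, *Gm11236* and *Gm11487*. *Gm428* had 106 and 101 FPKM in L2C oKO against 7.38 and 31.6 FPKM in E2C oKO, and 5.00 and 6.72 FPKM in L2C control against 82.0 and 80.6 FPKM in E2C control embryos (difference 6.25 ± 0.50). *Gm11236* had 95.0 and 80.6 FPKM in L2C oKO against 9.11 and 26.8 FPKM in E2C oKO embryos. The pattern was shared by all 8, and 6 of them are placed on the mm9 genome, all on chromosome 4 between 73062066 and 73551857, with gene spans of 4041 to 4048 bp. Such copies share reads, so the 8 are not independent counts. Without the first E2C oKO library *Gm11758* and *Gm11487* were no longer called in oKO embryos (log2 changes of 0.95 and 1.02), while the difference stayed called for all 8 without any 1 of the 8 2-cell libraries. The promoters of *Zfp352* and *Gm428* are shown because these genes are the examples of the reversed course. The stretches run from 250 bases before to 50 bases after the annotated start in the mm9 genome, 5′ to 3′ on the gene's own strand. Capitals mark GGATTA (written TAATCC on the other strand), the core of binding sites of Obox and other paired-like homeodomain factors, and, in *Gm428*, also TATAAA and CCAAT.
Zfp352, chr4:89885261-89885560, + strand: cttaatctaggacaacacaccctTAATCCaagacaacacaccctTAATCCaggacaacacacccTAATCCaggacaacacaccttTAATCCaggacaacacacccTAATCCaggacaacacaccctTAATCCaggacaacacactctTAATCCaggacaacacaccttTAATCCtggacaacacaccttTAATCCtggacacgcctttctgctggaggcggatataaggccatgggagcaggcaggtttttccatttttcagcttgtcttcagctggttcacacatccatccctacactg
Gm428, chr4:73329170-73329469, + strand: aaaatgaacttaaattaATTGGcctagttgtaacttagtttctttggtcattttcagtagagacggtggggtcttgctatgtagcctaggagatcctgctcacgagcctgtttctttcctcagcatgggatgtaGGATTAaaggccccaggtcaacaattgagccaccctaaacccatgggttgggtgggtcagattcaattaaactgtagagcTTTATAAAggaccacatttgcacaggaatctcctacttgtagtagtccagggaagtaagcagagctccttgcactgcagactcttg
The *Zfp352* promoter holds 9 matches to GGATTA or its reverse complement, in a repeated unit, and no match to TATAAA. The *Gm428* promoter holds 1 match to GGATTA, 2 overlapping matches to TATAAA and 1 to CCAAT. On either strand GGATTA occurred in 32.1% of the 28 located burst gene promoters, beside 7.65% of the promoters of all tested genes and 7.15% of 22030 protein-coding promoters, and TATAAA in 35.7%, 9.35% and 13.4%. In the 6 located genes of the chromosome 4 cluster every promoter held both. Compared in pairs without gaps, these promoters fell into 2 sets of copies. Those of *Gm11757*, *Gm11758* and *Gm13871* were 100% identical, and those of *Gm428*, *Gm11236* and *Gm11487* were 97.7% to 99.3% identical. Pairs across the sets were about 24% identical. The 6 promoters are therefore not independent cases of the motifs. A match is a string of letters and not a binding site shown by these data.

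Ribosomal protein genes, a main output of major ZGA, rose in oKO embryos and rose further in control embryos. Counts of this and the following lists are to be read against all 7061 tested genes, of which 21.9% were higher and 31.3% lower in oKO and 32.8% and 25.7% in control embryos as deposited. Of 82 tested, 63 rose and 2 fell in oKO, beside 80 and 1 in control, with median log2 changes of 1.88 and 3.22. The difference was more negative in oKO for 51 and more positive for 0 as deposited, and for 24 and 2 after scaling. *Rps26* had 294 and 238 FPKM in L2C oKO against 16.7 and 18.9 FPKM in E2C oKO embryos (3.83 ± 0.24), and 757 and 892 FPKM in L2C control against 94.3 and 80.7 FPKM in E2C control embryos. *Rpl41* had 768 and 587 against 141 and 139 FPKM in oKO, and 3505 and 3948 against 449 and 391 FPKM in control embryos. For *Rps26*, *Rps27* and *Rpl9* the difference of the changes was 0.61, 0.48 and -0.47 and not called, with lower values in oKO than in control embryos at both stages for *Rps26*. Other members did not rise in oKO embryos. *Rpl5* had 44.3 and 40.4 FPKM in L2C oKO against 44.1 and 36.4 FPKM in E2C oKO, and 167 and 201 FPKM in L2C control against 14.0 and 11.8 FPKM in E2C control embryos. *Rpl11*, whose protein with that of *Rpl5* forms the particle of 5S ribosomal RNA, fell to 65.3 and 58.9 FPKM in L2C oKO, against 164 and 134 FPKM in E2C oKO, while it rose to 267 and 253 FPKM in L2C control, against 70.8 and 43.1 FPKM in E2C control embryos. *Rps27l*, a paralog known as a p53 target, was the other one to fall in oKO and fell in control as well.

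Fewer genes of ribosome assembly rose in oKO than in control embryos. Of 82 rRNA processing and ribosome assembly genes tested, 30 rose and 11 fell in oKO (40 and 10 after scaling), beside 68 and 1 in control. *Polr1c*, of RNA polymerases I and III, had 18.5 and 12.5 FPKM in L2C oKO against 0.553 and 2.13 FPKM in E2C oKO embryos, and *Nob1* and *Nol11* rose likewise (2.98 and 2.75). *Brix1*, an assembly factor of the large subunit, fell to 67.8 and 55.4 FPKM in L2C oKO, against 543 and 494 FPKM in E2C oKO embryos, while it had 141 and 169 FPKM in L2C control against 274 and 160 FPKM in E2C control embryos. Of 43 translation factors 14 rose and 8 fell in oKO, beside 31 and 2 in control, with *Eif4a3* and *Pabpc1* among those that rose. Of 14 aminoacyl-tRNA synthetases 1 rose and 4 fell, beside 7 and 0. *Eif3m*, a subunit of initiation factor eIF3, was near level in oKO (17.5 and 10.5 FPKM in L2C against 18.2 and 13.2 FPKM in E2C oKO) and had 109 and 142 against 3.00 and 2.81 FPKM in control embryos.

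Of 36 RNA polymerase II subunits and elongation factors tested, 12 rose and 6 fell in oKO, beside 22 and 3 in control. The genes of P-TEFb, the kinase that releases paused polymerase, included *Cdk9* (2.86 and 3.36 FPKM in L2C oKO against 0.370 and 0.293 FPKM in E2C oKO, log2 change 1.62 ± 0.29) and *Ccnt1* (5.40 and 5.38 against 0.933 and 1.32 FPKM, 1.59 ± 0.32), which both rose, while *Ccnt2* was not called (2.2 and 2.95 against 1.52 and 3.42 FPKM). *Ell2* rose and *Polr2g* fell in both genotypes. Of 36 hnRNP, FET and SR protein genes 12 rose and 3 fell in oKO, beside 24 and 0 in control. *Srsf1* had 15.8 and 13.4 FPKM in L2C oKO against 2.22 and 2.59 FPKM in E2C oKO embryos and *Tra2a* 10.8 and 10.7 against 1.5 and 1.81 FPKM. Of 46 spliceosome genes 6 were higher and 17 lower in oKO (37.0%, beside 31.3% of all tested genes), and 22 and 7 in control. With quantile normalization the oKO counts were 10 and 8.

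Of the respiratory chain genes 48.6% were lower in oKO embryos, beside 31.3% of all tested genes, and 10.0% higher, beside 21.9%. Of 70 respiratory chain and ATP synthase genes tested, 7 rose and 34 fell in oKO, beside 31 and 7 in control, and the difference was more negative for 54 and more positive for 0 as deposited and for 38 and 2 after scaling. Quantile normalization gave 17 higher and 22 lower in oKO. *Uqcrb*, a complex III subunit, had 8.29 and 13.5 FPKM in L2C oKO against 321 and 152 FPKM in E2C oKO embryos (-4.26 ± 0.35), and 246 and 220 FPKM in L2C control against 96.6 and 45.4 FPKM in E2C control embryos. *Ndufa8*, of complex I, fell in both genotypes, to 2.52 and 2.02 FPKM in L2C oKO, against 79.1 and 74.2 FPKM in E2C oKO embryos. *Cox4i1* rose in oKO embryos (53.1 and 36.3 against 9.85 and 8.06 FPKM), and *Cox17*, a copper chaperone of complex IV assembly, was not called there (20.1 and 14.9 against 19.2 and 11.5 FPKM) while it had 221 and 222 against 5.76 and 4.78 FPKM in control embryos. Of 69 mitochondrial ribosomal protein genes 15 rose and 30 fell in oKO, beside 36 and 11 in control, with *Mrps33* at 28.3 and 34.9 FPKM in L2C oKO against 817 and 642 FPKM in E2C oKO embryos.

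Of 33 proteasome genes 5 rose and 11 fell in oKO, beside 18 and 2 in control, and the difference was more negative for 29 and more positive for 0 (19 and 0 after scaling). *Psma5*, of the core ring, had 6.96 and 7.82 FPKM in L2C oKO against 106 and 154 FPKM in E2C oKO, and 68.5 and 82.4 FPKM in L2C control against 44.3 and 31.5 FPKM in E2C control embryos. *Psmb5*, the chymotrypsin-like catalytic subunit, rose with 12.3 and 9.67 against 0.0127 and 0.285 FPKM in oKO embryos. Of 14 CCT chaperonin and prefoldin genes 2 rose and 6 fell, beside 8 and 3 in control, of 24 heat shock genes 4 rose and 4 fell, beside 10 and 4, and of 33 nuclear transport genes 7 rose (21.2%) and 11 fell (33.3%), shares near those of all tested genes, beside 14 and 7. *Nup98*, a nucleoporin, fell to 4.00 and 4.15 FPKM in L2C oKO, against 91.6 and 88.6 FPKM in E2C oKO embryos, and *Kpna1*, an importin, rose to 20.2 and 16.2 FPKM, against 0.381 and 0.713 FPKM.

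**Figure D4:**
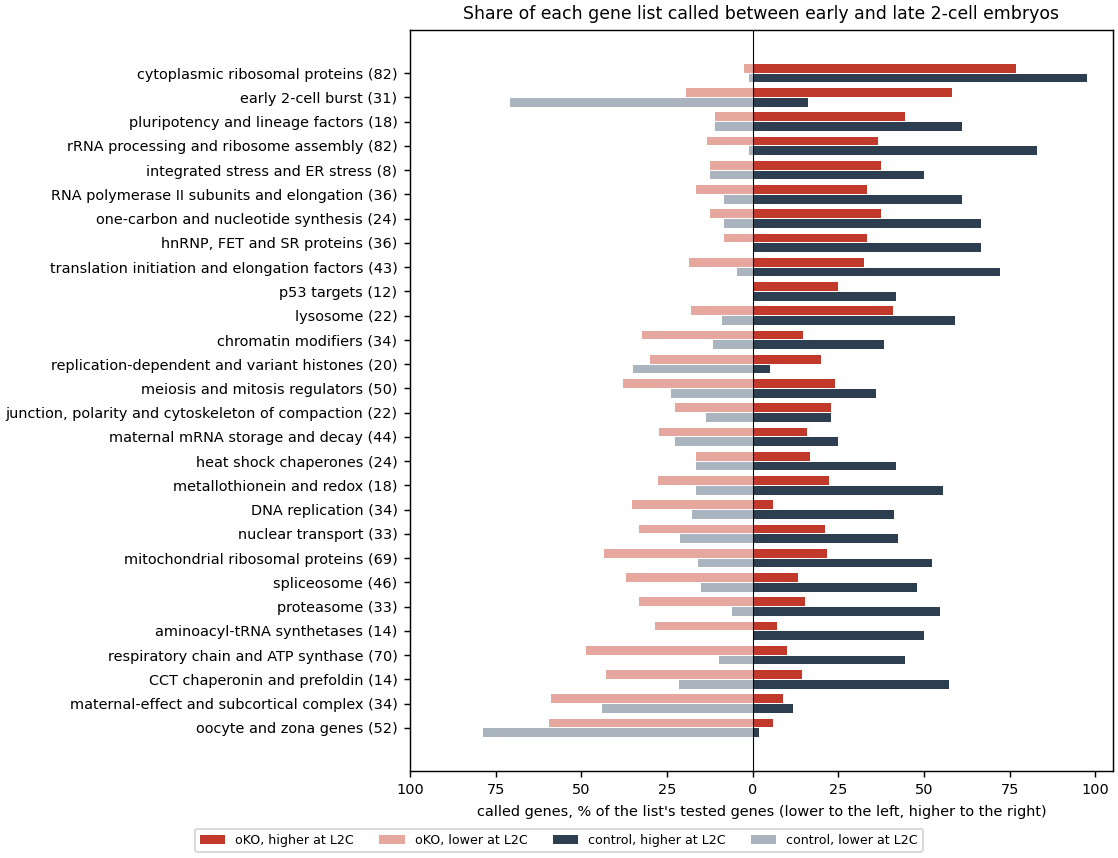
Share of the tested genes of each list called between E2C and L2C on the deposited values, in percent, with genes higher at L2C to the right and lower to the left, red for oKO and blue-grey for control, and the number tested in parentheses. Cytoplasmic ribosomal proteins reach 63 of 82 higher in oKO and 80 of 82 in control, the early 2-cell burst points right in oKO and left in control, and oocyte and zona genes point left in both.

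Lysosome and one-carbon metabolism were among the lists with more increases than decreases in oKO embryos. *Cd63*, a tetraspanin of late endosomes, had 69.3 and 44.5 FPKM in L2C oKO against 0.300 and 0.978 FPKM in E2C oKO embryos (5.14 ± 0.28), and *Ctsl*, a lysosomal protease, 85.1 and 87.7 against 1.92 and 4.71 FPKM. Of 22 lysosome genes 9 rose and 4 fell, beside 13 and 2 in control. Of 24 one-carbon and nucleotide synthesis genes 9 rose and 3 fell, beside 16 and 2, with *Nme2*, a nucleoside diphosphate kinase, at 58.8 and 38.5 against 1.93 and 1.81 FPKM and *Gcsh*, of the glycine cleavage system, at 95.7 and 68.4 against 4.41 and 8.6 FPKM in oKO embryos. Of 18 pluripotency and lineage genes 8 rose and 2 fell, beside 11 and 2. *Spic*, an Ets-family factor, had 65.3 and 50.7 against 1.11 and 2.63 FPKM in oKO and 323 and 396 against 40.5 and 51.6 FPKM in control embryos, and *Dppa4*, a chromatin factor of early embryos, rose by a like factor in both (3.24 and 3.32). *Dppa2*, its partner, was not called in oKO embryos (34.9 and 28.1 against 26 and 26.7 FPKM) and had 121 and 143 against 20.4 and 24.2 FPKM in control embryos. *Hes1*, a Notch target in other tissues, had 15.2 and 23.1 against 2.71 and 2.27 FPKM in oKO, and 1.72 and 2.14 against 2.56 and 2.54 FPKM in control embryos, a difference of 2.79.

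Of 34 DNA replication genes 2 rose and 12 fell in oKO, beside 14 and 6 in control as deposited. After scaling 7 rose and 9 fell in oKO, beside 10 and 10 in control, and quantile normalization gave 3 and 6 in oKO. *Orc4*, of the origin recognition complex, fell to 13.8 and 13.0 FPKM in L2C oKO, against 129 and 114 FPKM in E2C oKO embryos. Of the 20 tested genes of the histone list, 4 rose and 6 fell in oKO, beside 1 and 7 in control as deposited. After scaling 6 rose and 4 fell in oKO, beside 1 and 10 in control. *Slbp*, which encodes a binding protein of histone messenger RNA and is no histone gene, is 1 of those that fell in each genotype. *H3f3b*, encoding histone variant H3.3, fell in both genotypes, and *Hist1h4d* and *Hist1h4i*, near-identical H4 copies, rose in oKO embryos (67.1 and 97.1 against 15.2 and 18.6 FPKM for *Hist1h4d*). The libraries were primed on poly(A), and how fully that captures the RNAs of these histone copies was not tested. Of 34 chromatin modifier genes 5 rose (14.7%) and 11 fell (32.4%, near the 31.3% of all tested genes) in oKO, beside 13 and 4 in control, and *Asf1a*, a histone chaperone, had 10.2 and 23.6 against 272 and 333 FPKM. Of 22 junction, polarity and cytoskeleton genes 5 rose and 5 fell, beside 5 and 3, and of 12 p53 targets 3 rose (25%, near the 21.9% of all tested genes) and 0 fell, beside 5 and 0, among them *Gadd45a* (4.71 and 7.16 against 0.900 and 0.786 FPKM). The tumour suppressor gene *Trp53* itself and its target *Cdkn1a* were not called in oKO embryos (2.01 and 1.37 against 0.996 and 2.77 FPKM, and 2.57 and 1.74 against 2.02 and 3.67 FPKM). Of 8 stress response genes 3 rose and 1 fell, beside 4 and 1 in control, with the endoplasmic reticulum chaperone *Hspa5* at 14.4 and 18.9 against 5.53 and 5.50 FPKM, and the 1 that fell, *Creld2*, was not called after scaling.

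The metal-binding metallothioneins took separate courses in oKO embryos. *Mt2* rose, with 317 and 231 FPKM in L2C oKO against 6.14 and 14.7 FPKM in E2C oKO embryos (4.68 ± 0.86), and with 1287 and 1500 against 12.1 and 14.2 FPKM in control embryos. *Mt1* was already at 696 and 567 FPKM in E2C oKO and was 252 and 241 FPKM in L2C oKO embryos, while control embryos had 1624 and 1734 FPKM at L2C against 38.0 and 26.4 FPKM at E2C. The difference of -7.03 was the largest negative one among the genes named. *Mt1* had 746 and 927 FPKM in full-grown oKO oocytes, 262 and 255 FPKM in MII oKO oocytes and 318 and 321 FPKM in 1-cell oKO embryos, so both E2C values lay below the full-grown oocyte and above the MII and 1-cell values. The oKO decrease of *Mt1* (-1.35, adjusted p = 0.0184) was not called without the first E2C oKO library and was +0.26 and not called with quantile normalization. Of 18 metallothionein and redox genes 4 rose and 5 fell, beside 10 and 3.

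Of the oocyte and zona genes 59.6%, and of the maternal-effect genes 58.8%, were lower in oKO embryos on the deposited values, beside 31.3% of all tested genes. Of 52 oocyte and zona genes tested 31 fell and 3 rose in oKO, beside 41 and 1 in control, and of 34 maternal-effect genes 20 fell and 3 rose, beside 15 and 4. After scaling 31 oocyte and 17 maternal-effect genes fell in oKO, and with quantile normalization 20 and 14. *Fbxw24* had 129 and 187 FPKM in L2C oKO against 4088 and 4006 FPKM in E2C oKO embryos (-4.69 ± 0.20), and *Nlrp9c*, of the oocyte Nlrp family, 33.8 and 47.0 against 573 and 562 FPKM. *Dicer1*, the small RNA nuclease, fell to 3.79 and 4.76 FPKM, against 103 and 64.2 FPKM, and *Eed*, of Polycomb complex 2, to 10.9 and 20.9 FPKM, against 305 and 305 FPKM. *Tcl1*, a coactivator of the Akt kinase, had 879 and 903 FPKM in L2C oKO against 777 and 1649 FPKM in E2C oKO and was not called (-0.35), while it had 114 and 116 FPKM in L2C control against 1250 and 1514 FPKM in E2C control embryos. *Uchl1* and *Rfpl4b* also differed, *Rfpl4b* with 158 and 135 FPKM in L2C oKO against 10.5 and 29.0 FPKM in E2C oKO embryos. The difference was more positive in oKO for 17 oocyte genes and more negative for 9 as deposited, and for 23 and 3 after scaling, the 9 including 8 of the *Fbxw* copies, whose E2C values were higher in oKO than in control embryos.

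Of 44 genes of maternal RNA storage and decay 7 rose (15.9%) and 12 fell (27.3%) in oKO, near the 21.9% and 31.3% of all tested genes, beside 11 and 10 in control. *Btg4*, the adaptor that brings deadenylase to maternal RNA in mice, had 584 and 699 FPKM in L2C oKO against 1716 and 3373 FPKM in E2C oKO, and 193 and 143 FPKM in L2C control against 2891 and 2870 FPKM in E2C control embryos (difference 2.2). *Cnot7*, a catalytic subunit of that deadenylase, fell to 52.7 and 85.8 FPKM, against 380 and 550 FPKM, and its close paralog *Cnot8* rose to 25 and 26.7 FPKM, against 4.87 and 7.63 FPKM. Both moved the same way in control embryos. Of 50 meiosis and mitosis regulators 12 rose and 19 fell, beside 18 and 12, with the cyclin gene *Ccnb2* at 12 and 21.2 against 142 and 266 FPKM in oKO embryos.

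Grouped by calls that held on both scales, 1156 of the 7061 genes were higher in both transitions, 1352 lower in both, 575 higher in control and not in oKO, 354 lower in control and not in oKO, 278 higher and 469 lower in oKO and not in control, 45 higher in oKO and lower in control, and 35 the reverse. A call missing in one genotype is not itself a difference, which was tested above. Genes lower in both had median values of 18.4 and 18.9 FPKM in MII oKO oocytes, beside 7.36 and 7.21 FPKM for all tested genes. Over 5 FPKM there were 79.7% of them, beside 59.9% of all tested genes. The 1156 genes higher in both reached medians of 6.56 and 5.45 FPKM in L2C oKO against 0.663 and 0.831 FPKM in E2C oKO embryos, and 15.7 and 16.1 FPKM in L2C control against 1.78 and 1.66 FPKM in E2C control embryos. The 575 genes higher in control and not in oKO had medians of 8.01 and 7.68 FPKM in MII oKO oocytes, near those of all tested genes. Of these 575 genes 66.8% were over 5 FPKM there, beside 59.9% of all tested genes and 29.4% of the genes higher in both. In oKO embryos they stood at 3.77 and 3.20 FPKM at L2C against 3.05 and 3.50 FPKM at E2C, and in control embryos at 13.4 and 13.8 FPKM at L2C against 2.76 and 2.80 FPKM at E2C. Their median gene span was 19723 bp, beside 12171 bp for genes higher in both, 24100 bp for genes lower in both and 21860 bp for all located genes.

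**Figure D5:**
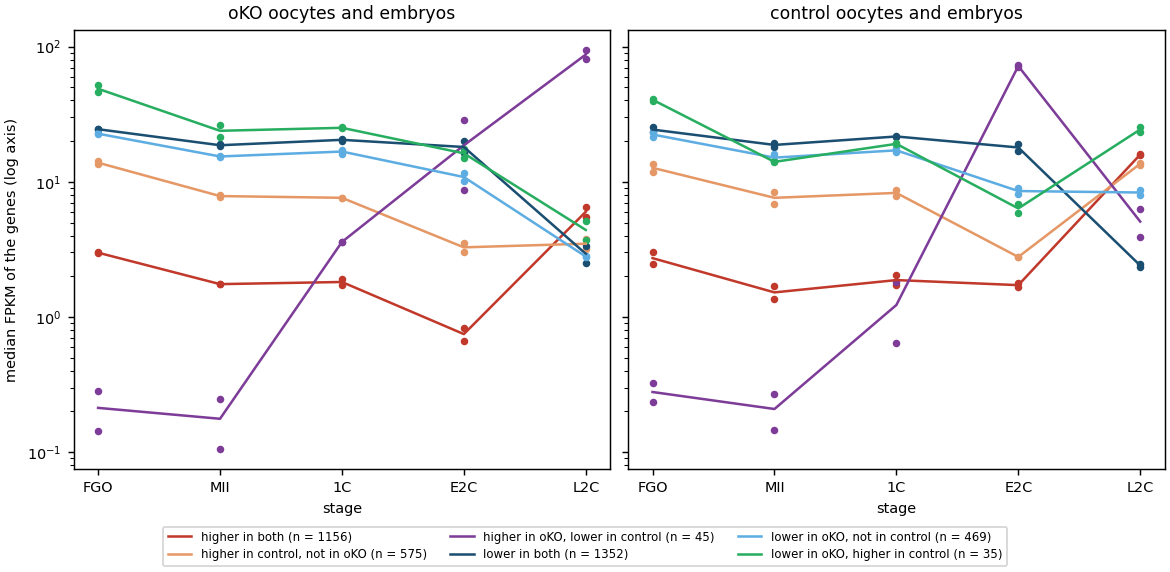
Median FPKM (log axis) of 6 groups of genes at 5 stages, full-grown oocyte (FGO), MII oocyte, 1-cell (1C), E2C and L2C, in oKO (left) and control (right), with points for the libraries and lines through their means. The groups were defined from the 2-cell stages, and the 45 genes higher in oKO and lower in control peak at L2C in oKO (medians 94.2 and 80.6 FPKM) and at E2C in control (72.8 and 70.9 FPKM).

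Most of the 45 genes that were higher in oKO and lower in control were low in oocytes, with medians of 0.106 and 0.247 FPKM in MII oKO oocytes. There 31 (68.9%) were under 1 FPKM, beside 13.7% of all tested genes, and 6 (13.3%) were over 5 FPKM. *Oosp1*, a member, had 7499 and 7685 FPKM in MII oKO oocytes. The 45 genes had medians of 94.2 and 80.6 FPKM in L2C oKO against 8.75 and 28.5 FPKM in E2C oKO embryos. In control embryos they had 3.89 and 6.27 FPKM at L2C against 72.8 and 70.9 FPKM at E2C. They include *Zfp352*, *Obox3*, *Tdpoz3*, *Usp17lb*, *Rfpl4b*, *Oosp1*, *Pramef25* and the copies named above. Only 33 of them (73.3%) could be placed on mm9, so no share of motifs or span is given for them. With quantile normalization 70 genes took this course.

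The 35 genes with the reverse course were mostly RNAs already present in the oocyte. In oKO they had medians of 21.5 and 26.2 FPKM at MII, and of 5.10 and 3.71 FPKM in L2C oKO against 17.5 and 15.0 FPKM in E2C oKO embryos, while control embryos had 25.3 and 23.5 FPKM at L2C against 6.80 and 5.91 FPKM at E2C. They include *Mrpl21*, *Mrpl27*, *Mrpl33*, *Mrpl39*, *Mrps18a* and *Mrps22* of the mitochondrial ribosome, *Cops3* and *Cops5* of the COP9 signalosome, *Ndufa12* and *Uqcrb* of the respiratory chain, *Polr2i* of RNA polymerase II, and *Emg1*, *Fcf1* and *Ddx24*, which act in ribosome assembly. *Emg1* had 22.2 and 13.0 FPKM in L2C oKO against 68.4 and 83.9 FPKM in E2C oKO embryos (-2.09 ± 0.31), and 123 and 147 FPKM in L2C control against 17.0 and 20.9 FPKM in E2C control embryos. *Actr6*, of the complex that deposits histone H2A.Z, had 4.78 and 3.47 against 28.1 and 18.5 FPKM in oKO, and 37.8 and 48.9 against 6.95 and 5.23 FPKM in control embryos. *Mtx2*, of the mitochondrial outer membrane import machinery, had 1.54 and 1.69 against 8.15 and 13.3 FPKM in oKO, and 17.5 and 21.8 against 1.25 and 1.72 FPKM in control embryos.

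The promoters of *Emg1*, *Actr6* and *Mtx2* are printed as examples of this reverse course, over the same window and build. Capitals mark CCGGAAG (written CTTCCGG on the other strand), the core of Ets-family sites, TGCACAC in *Emg1* and CCAAT in *Actr6*.
Emg1, chr6:124662147-124662446, - strand: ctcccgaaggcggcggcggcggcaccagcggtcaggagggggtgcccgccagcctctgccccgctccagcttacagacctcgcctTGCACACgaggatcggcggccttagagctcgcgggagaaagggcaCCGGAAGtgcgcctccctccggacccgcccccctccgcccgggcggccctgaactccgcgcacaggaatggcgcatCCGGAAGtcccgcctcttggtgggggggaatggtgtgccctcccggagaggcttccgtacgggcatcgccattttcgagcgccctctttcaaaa
Actr6, chr10:89194991-89195290, - strand: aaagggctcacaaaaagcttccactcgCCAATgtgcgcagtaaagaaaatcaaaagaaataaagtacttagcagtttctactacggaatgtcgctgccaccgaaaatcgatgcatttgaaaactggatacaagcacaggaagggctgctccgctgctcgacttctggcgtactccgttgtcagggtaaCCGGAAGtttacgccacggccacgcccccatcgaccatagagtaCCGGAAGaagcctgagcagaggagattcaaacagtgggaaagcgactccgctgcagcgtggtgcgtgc
Mtx2, chr2:74663610-74663909, + strand: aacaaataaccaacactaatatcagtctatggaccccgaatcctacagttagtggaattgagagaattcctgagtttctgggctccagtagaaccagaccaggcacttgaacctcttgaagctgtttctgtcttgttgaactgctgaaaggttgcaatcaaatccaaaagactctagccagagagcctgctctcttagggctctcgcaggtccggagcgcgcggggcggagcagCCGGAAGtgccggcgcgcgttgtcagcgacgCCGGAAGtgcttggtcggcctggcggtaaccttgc
Each of the 3 holds 2 matches to CCGGAAG. Of the 34 located promoters of this group 20 (58.8%) held it on either strand, beside 19% of all tested and 10.8% of all protein-coding promoters, and TGCACAC was in 6 (17.6%), beside 3.59% and 4.19%. CCGGAAG was also in 48.8% of the 82 rRNA processing and ribosome assembly promoters. It was in 37.8% of spliceosome, 34.8% of mitochondrial ribosomal protein, 31.2% of proteasome and 1.96% of oocyte and zona promoters. Genes lower in oKO and not in control held it in 29.8%, and genes higher in control and not in oKO in 24.2%. The share was 23.2% for genes higher in both and 13.9% for genes lower in both transitions. The motifs were chosen with earlier results known, and the shares are descriptions with no test.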

How the data were processed

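Full-length RNA-seq (Smart-seq2, poly(A)-primed, 20 embryos per library) was deposited as one table of FPKM values, which the authors made with Trim Galore 0.6.6, HISAT2 2.2.1 (mm9) and StringTie 2.1.2. It lists 24085 genes, of which 2 rows without values and 27 names turned into dates were left out. No read counts were used, and the 16 Stacc-seq samples were not analysed here. limma 3.58.1 (R 4.3.3; trend, robust, 1 array weight per collection, 12 residual degrees of freedom) was fitted on log2(FPKM + 1) to all 24 libraries, with Benjamini-Hochberg adjustment over 7061 genes. Fold changes on this scale understate the change of low genes. Contrasts were L2C minus E2C in oKO, in control, and their difference. Median-ratio size factors came from 9522 genes. The fit was tested on simulated data. Alternatives were scaling, quantile normalization, pseudocount, filter, threshold, weights, replicate block and leaving out each 2-cell library.

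Named genes were, for the oKO contrast, 12 called genes each way by size of change (mean of at least 5 FPKM, no overlap, same call after scaling), the 6 most abundant called each way, the 8 largest differences each way, up to 4 called members of each list with the largest change, genes the study names, and *Tardbp*. Other genes in the text were named after their values were seen. The members and lists were chosen with earlier results of these data known. The study's source data name 1170 ZGA genes, 1106 of them also in its major list and the other 64 taken here as minor. Promoters are RefSeq gene starts on mm9, matched by symbol for 6735 of the 7061 genes (95.4%).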

Additional observations from a re-analysis of the deposited data

Results flagged for a closer look

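The 16 genes named for the largest difference between the oKO and the control transition are given here because the difference itself passed the test (limma, on log2(FPKM + 1), with Benjamini-Hochberg adjustment over 7061 genes). The oKO change minus the control change was 7.20 for *Gm11758*, 6.63 for *Gm11757*, 6.44 for *Gm13871*, 6.25 for *Gm428*, 6.16 for *LOC101055863*, 6.10 for *LOC100862015*, 6.06 for *Gm11236* and 6.05 for *Gm11487*, in each case with a rise in oKO and a fall in control embryos. It was -7.03 for *Mt1*, -6.06 for *Uqcrb*, -5.18 for *Eif3m*, -5.18 for *Mtx2*, -4.95 for *Cox17*, -4.93 for *Psma5*, -4.88 for *Actr6* and -4.86 for *Emg1*, where control embryos had the higher L2C values. *Eif3m* and *Cox17* were not called in oKO embryos.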

How the results depend on the processing

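Of 3055 values of named genes under the alternatives, 2964 kept direction and call, 89 kept direction and lost the call, 0 gained one and 2 turned, *Mt1* (0.26) and *Omt2b* (0.42), both with quantile normalization. Genes higher and lower in oKO numbered 627 and 1290 with a pseudocount of 5, 618 and 1462 with a mean of 5 FPKM or more, and 575 and 874 at 4-fold. In control they numbered 1521 and 1145, 901 and 1150, and 1159 and 906, and 3549 were higher with no filter. The more positive differences numbered 1105 with median-ratio scaling, 1208 with quantile normalization, 324 with a pseudocount of 5, 384 at 5 FPKM and 220 at 4-fold, and the more negative ones 879 with scaling, 894 with quantile normalization, 962 at 5 FPKM and 507 at 4-fold. Maternal genes that rose in oKO numbered 151 after scaling and 37 with control L2C libraries in the definition, and major ZGA genes that fell numbered 22 with those. Genes higher in oKO and lower in control numbered 70 with quantile normalization, and the reverse 35 after scaling and 33 with quantile normalization, against 73 as deposited. The cause was not tested, apart from the stricter filter and threshold, which admit fewer genes.

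Leaving out 1 library gave 378 to 809 more positive and 1198 to 1921 more negative differences, the lowest without the first and the second E2C control library. The study's minor ZGA genes that fell in oKO numbered 5 to 12. Same-numbered 2-cell libraries did not deviate together across genes (r = 0.0351 in oKO and -0.0186 in control). Such a correlation cannot show whether same-numbered libraries share mothers, a collection day or a batch. With a replicate block 1533 genes were higher and 2204 lower in oKO, 2315 and 1818 in control, and 623 and 1787 in the difference, and of the named genes *Hba-a2* lost its call. The depth is unknown, so no limit of detection can be given.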
